A study of Homo sapiens with 24 samples.

Results

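The genes described here are those of the respiratory chain and the ATP synthase, which are encoded by 2 genomes. Of the 18915 genes in the deposited count table, 100 were taken by their symbols: 13 mitochondrially encoded genes, whose symbols begin with MT-, and 87 nuclear genes (symbols of the NDUF, SDH, CYC1, UQCR, COX4I, COX5, COX6, COX7, COX8 and ATP5 families). Of the nuclear genes, 76 encode standard subunits, with 37 in complex I, 4 in complex II, 9 in complex III, 11 in complex IV (NDUFA4 included) and 15 in complex V, the ATP synthase. The other 11 are copies, isoforms, factors, an antisense RNA and a readthrough transcript that share the symbols. In all, 96 members, the 13 mitochondrial genes and 83 nuclear ones, passed the filter on low counts and were tested; the 4 that did not, NDUFA4L2, COX6B2, COX8C and ATP5J2-PTCD1, had at most 24 reads over all libraries. The cells were HepG2, a human hepatoma line, harvested after 10 h in 1 of 6 treatments. These were DMSO, the vehicle; ISRIB at 50 nM; nelfinavir at 20 µM; bortezomib at 50 nM; and bortezomib combined at the same doses with nelfinavir or with ISRIB. Each of the 6 treatments had 4 replicates by its labels, 24 libraries in all, and the authors' methods call them biological. The 3′ ends of polyadenylated RNA were sequenced. Bortezomib inhibits the proteasome, nelfinavir was used to raise and ISRIB to blunt signalling through phosphorylated eIF2α and ATF4, and the comparisons ask how that pathway alters the response to bortezomib. It is 1 cell line at 1 time point, and fewer cells or less RNA per cell in a culture cannot be told apart in such libraries.

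The mitochondrial genome encodes a few core subunits of complexes I, III, IV and V. Its genes are transcribed inside the organelle from both strands as long precursors. These are cut at the intervening tRNAs, and most of the messages are given short poly(A) tails. The nuclear genome encodes the other subunits and the whole of complex II, and these proteins are made in the cytosol and imported. Chain assembly therefore draws on the output of both genomes, and mitochondrial stress is itself known to activate ATF4.

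The libraries held between 5154533 and 6943164 counts. All 10 hepatocyte markers looked for were present, with summed levels of 15400 to 16740 counts per 1000000 (CPM, scaled by TMM factors) in DMSO, 11400 to 12060 CPM in bortezomib and 7594 to 9477 CPM with nelfinavir added, so the marker level was lower along with several members named later, and its part in those results was not tested. Of 12 markers of other cell types, 7 were in the table, and 3 of those 7 were at 0 in all DMSO libraries. Their sum also went down with bortezomib, from 370 to 442 CPM in DMSO to 149 to 221 CPM, and was 127 to 190 CPM with nelfinavir added and 159 to 280 CPM with ISRIB added. Of the 2 that could be tested, ACTA2, a muscle actin, rose by 1.47 with bortezomib (edgeR adjusted p = 4.223e-11) and LYZ, lysozyme, fell by 1.79 (edgeR adjusted p = 6.617e-10), and the part of these markers in the results was not tested. Replicates 3 and 4 of bortezomib with nelfinavir stood apart from replicates 1 and 2 in several members: NDUFB3, an accessory subunit of complex I, was counted at 36.8, 40.2, 7.86 and 11.6 CPM in replicates 1 to 4. Replicate 3 was the lowest library for the same gene in 3 other groups as well, at 24.4 CPM in bortezomib with ISRIB (others 61.5 to 91.8), 42.6 CPM in nelfinavir (others 50.9 to 80.1) and 61.3 CPM in ISRIB (others 87.4 to 103). In DMSO and bortezomib it was not. Over all genes, the pair of replicates farthest apart was 3 and 4 of bortezomib with ISRIB, with a chi-square per degree of freedom of 22.03. The pairs across the split in bortezomib with nelfinavir had 13.21 to 20.31. Libraries of bortezomib with ISRIB were left out only singly. Values without replicates 3 and 4 of bortezomib with nelfinavir are given beside the results whose calls are lost without them.

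Reads in these libraries start from oligo-dT priming, so the adenine-rich stretches of the mitochondrial messages are shown for the genes with the most and the fewest adenines. Each is the stretch of 20 bases with the most adenines in that gene, 5′ to 3′ on the coding strand, with runs of 3 or more adenines in capitals, from chrM of the GRCh37 reference. They lie at chrM:8489-8508 and chrM:13218-13237 for MT-ATP8 and MT-ND5 and at chrM:10483-10502 for MT-ND4L, all on the plus strand, and at chrM:14307-14326 on the minus strand for MT-ND6.
MT-ATP8: atAAAAAtAAAAAAttataa
MT-ND5: acAAAAtgacatcAAAAAAA
MT-ND4L: acatAAAtattatactagca
MT-ND6: AAActttaatagtgtaggaa
The count of adenines was 15 in MT-ATP8, 14 in MT-ND5, 10 in MT-ND4L and 9 in MT-ND6, and between 11 and 13 in the other genes. MT-ND6 (ENSG00000198695), a complex I subunit at chrM:14149-14673, is the single member on the minus strand, and no source read here says whether counting used strand. Its reads therefore cannot be told apart from antisense transcripts of that stretch, and whether its message carries a poly(A) tail was not measured here. MT-ATP8 (chrM:8366-8572) and MT-ATP6 (chrM:8527-9207), both subunits of the ATP synthase, share 46 bases at chrM:8527-8572, shown because reads there could belong to either gene, with runs of 4 or more adenines in capitals.
MT-ATP8 and MT-ATP6: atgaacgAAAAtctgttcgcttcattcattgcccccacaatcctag

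Promoters are shown for 4 nuclear members described later in the text. Of the 87 nuclear members, 67 matched a RefSeq promoter (build GRCh38.p14), and 62 of these were standard subunits. Among those 62, 12 (19.4%) held the core of the NRF1 motif, GCATGCGC, against 2.81% of all 27305 promoters, and 16 (25.8%) held the ETS core CCGGAAG, against 8.82%. The GC box GGGCGG was found in 56.5% against 42.3%, CCAAT in 29% against 33%, and the cyclic AMP response element TGACGTCA in 4 (6.45%) against 1.77%. Both strands were searched over the 250 bases before the start of transcription, and a match is a description of letters only. In the 4 promoters below, matches to NRF1, ETS and cyclic AMP response element letters are in capitals. Each of the 4 holds a match, so they do not stand for the members that moved most. The promoters of UQCR10, NDUFB3 and COX7B held none of these letters. Their log2 fold changes with bortezomib were -1.583, -1.415 and -1.064, beside -0.6873 for ATP5J. COX6A1 (chr12:120437863-120438112, plus strand) rose with bortezomib, ATP5J (chr21:25735055-25735304, minus strand) fell, ATP5G2 (chr12:53676084-53676333, minus strand) did not pass the test, and ATP5G1 (chr17:48892537-48892786, plus strand) was the nuclear member that fell most.
COX6A1: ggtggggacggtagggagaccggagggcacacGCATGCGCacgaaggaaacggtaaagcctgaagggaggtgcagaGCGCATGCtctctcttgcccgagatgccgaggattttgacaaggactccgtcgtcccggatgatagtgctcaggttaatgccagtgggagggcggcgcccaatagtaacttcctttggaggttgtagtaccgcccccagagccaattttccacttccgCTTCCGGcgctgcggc
ATP5J: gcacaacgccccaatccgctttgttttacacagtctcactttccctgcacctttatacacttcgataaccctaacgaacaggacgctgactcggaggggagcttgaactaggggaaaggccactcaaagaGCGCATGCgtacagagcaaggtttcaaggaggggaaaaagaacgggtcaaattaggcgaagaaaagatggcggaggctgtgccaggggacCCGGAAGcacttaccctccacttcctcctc
ATP5G2: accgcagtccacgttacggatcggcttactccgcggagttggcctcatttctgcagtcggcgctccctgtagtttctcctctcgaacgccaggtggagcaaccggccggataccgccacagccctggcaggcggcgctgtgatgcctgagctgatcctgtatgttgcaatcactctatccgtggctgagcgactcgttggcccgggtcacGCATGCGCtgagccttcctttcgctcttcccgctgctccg
ATP5G1: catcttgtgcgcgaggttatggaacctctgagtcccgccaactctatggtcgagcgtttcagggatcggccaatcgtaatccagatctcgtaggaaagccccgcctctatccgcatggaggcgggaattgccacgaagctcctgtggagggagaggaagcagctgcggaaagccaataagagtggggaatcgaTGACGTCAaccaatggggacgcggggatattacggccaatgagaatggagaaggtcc
The NRF1 core was in 5 of the 35 subunit promoters of genes that fell with bortezomib, in 1 of the 4 of genes that rose and in 6 of the 23 others. The 4 subunit genes with TGACGTCA were ATP5G1, ATP5I, NDUFB2 and NDUFA10, whose log2 fold changes with bortezomib were -1.66, -1.27, -0.79 and 0.21.

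With bortezomib the counts of the 2 genomes moved apart. For each count on a nuclear member, the DMSO libraries held 13.8, 16.5, 14.5 and 13.9 counts on the 13 mitochondrial genes, and the bortezomib libraries held 40.2, 42.3, 45.1 and 37.6. No bortezomib library overlapped a DMSO library, and the ratio was 2.81 times that of DMSO, a difference of 1.49 on the log2 scale with a pooled SD of 0.114. This ratio is taken within a library, so it does not depend on scaling between libraries, and with each gene weighing the same the difference was 1.45. The ratio overlapped with DMSO under ISRIB alone, at 14.1, 12.1, 15.3 and 15.3, and under nelfinavir alone, at 12.95, 14.7, 14.9 and 15.3. With bortezomib it was 37.3, 40.4, 31.1 and 32.8 when nelfinavir was added and 41.5, 43.1, 38.0 and 49.8 when ISRIB was added, all above every library without bortezomib. Both sums moved as shares of the counts. The 13 mitochondrial genes took 21.5% ± 1.32 (SD, n = 4) of all counts in DMSO and 33.8% ± 1.20 (SD, n = 4) in bortezomib, a difference of 12.26 points. The nuclear members took 1.87% ± 0.0623 (SD, n = 4) of the counts outside the mitochondrial genes in DMSO, 1.24% ± 0.0561 (SD, n = 4) in bortezomib, 1.06% ± 0.0125 (SD, n = 4) with nelfinavir added and 1.32% ± 0.0314 (SD, n = 4) with ISRIB added.

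**Figure D1:**
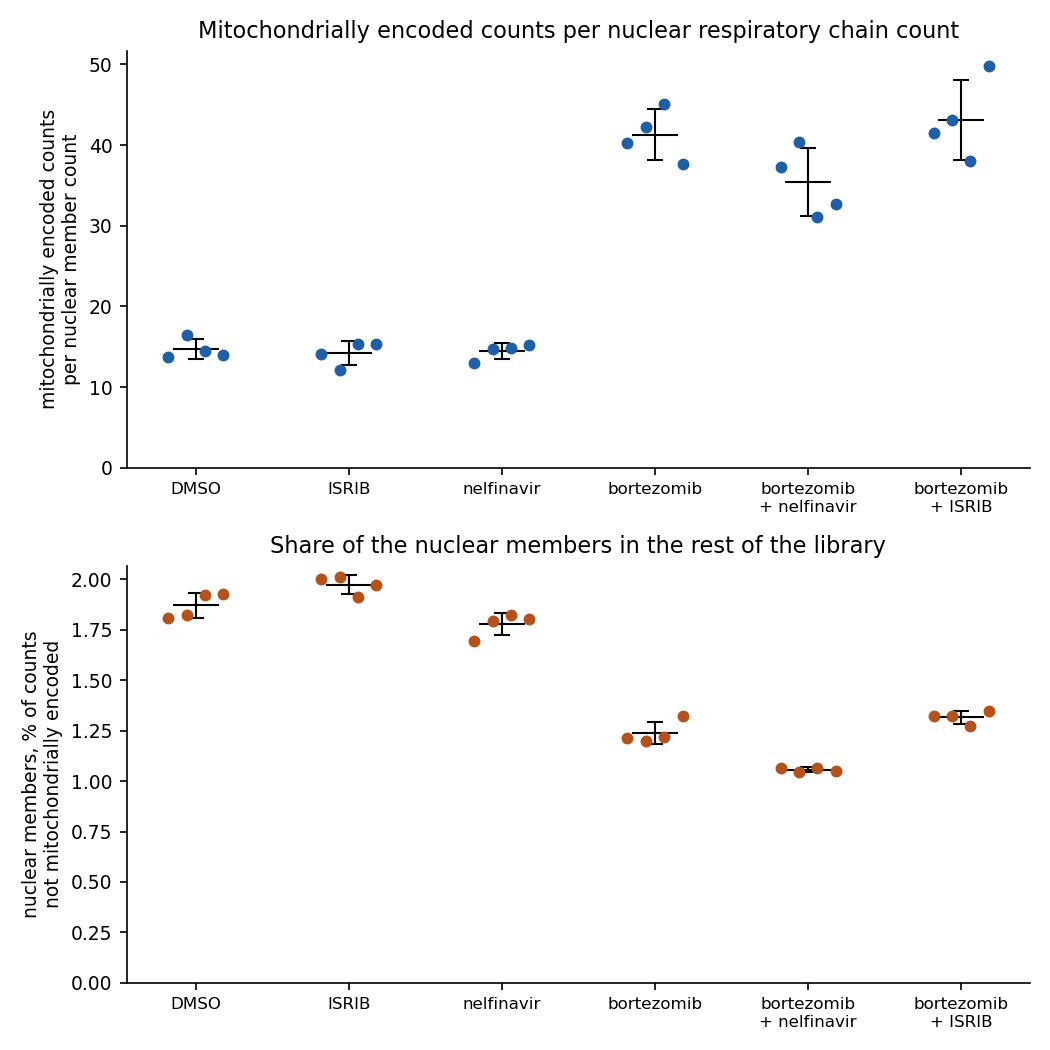
Counts on the 13 mitochondrially encoded genes per count on the nuclear members (upper panel) and the nuclear members' percentage of the counts that are not mitochondrially encoded (lower panel), by treatment on the x axis; points are libraries, and the dash and bars are the mean and SD of 4. In the upper panel the 12 libraries with bortezomib lie between 31.1 and 49.8 and the 12 without it between 12.1 and 16.5.

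Adding nelfinavir to bortezomib changed this ratio by -0.23 on the log2 scale, but with each gene weighing the same the value was 0.039, and without replicates 3 and 4 of the combination it was -0.0859. Adding ISRIB changed it by 0.06. The bortezomib and the bortezomib with nelfinavir libraries overlapped, as did those of bortezomib with and without ISRIB, so neither addition separated the groups in this ratio. In the mitochondrial genes' share of all counts, nelfinavir did separate them: the share was 32.8%, 33.7%, 35.5% and 33.2% in bortezomib and 28.5%, 29.6%, 24.9% and 25.6% with nelfinavir added, a difference of -6.62 points (pooled SD 1.81) that was -4.72 without replicates 3 and 4 of the combination. With ISRIB added the share was 35.4%, 36.3%, 32.6% and 40.2%, which overlapped with bortezomib alone. No test was made of the ratio or the share, since each is a score over a chosen list.

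Of the 13 mitochondrial genes, 12 rose with bortezomib and none fell, 8 of them more than 2-fold, with a median log2 fold change of 1.18 (edgeR quasi-likelihood test over 12685 genes, adjusted p under 0.05). Over all genes tested, 27.6% rose and 25.8% fell, and their median was 0.00. MT-ND1 (ENSG00000198888, chrM:3307-4262), a core subunit of complex I, was counted at 6497, 9436, 7799 and 7749 CPM in DMSO and at 22180, 22370, 27860 and 24980 CPM in bortezomib. The groups did not overlap, and its log2 fold change, 1.63 (SE 0.18, edgeR adjusted p = 2.589e-09), was the highest of the 13. MT-CO1, the catalytic subunit of complex IV, was at 2250, 2569, 2290 and 2230 CPM in DMSO and at 6070, 5901, 6016 and 5853 CPM in bortezomib. Those libraries lay closer together than the MT-ND1 ones, and the log2 fold change was 1.35 (SE 0.0938, edgeR adjusted p = 5.333e-14). The other complex I genes MT-ND2, MT-ND4, MT-ND5 and MT-ND3 rose by 1.48, 1.31, 1.20 and 0.99 on the log2 scale. MT-CYB, cytochrome b of complex III, rose by 1.18, and MT-CO2 and MT-CO3, the other catalytic core subunits of complex IV, by 0.90 and 0.96. MT-ATP8 and MT-ATP6, which sit in the membrane part of the ATP synthase, rose by 1.19 and 1.02. MT-ATP8 ranged from 8370 to 12130 CPM in DMSO and from 15500 to 30040 CPM in bortezomib, without overlap.

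The 2 remaining genes of complex I moved less. MT-ND4L, a small membrane subunit at chrM:10470-10766 whose last 7 bases are shared with MT-ND4, was at 1254, 1380, 1412 and 1389 CPM in DMSO and at 2081, 2062, 1909 and 1863 CPM in bortezomib. It rose by 0.54 (SE 0.0989, edgeR adjusted p = 2.205e-05), but with libraries scaled by their totals alone the value was 0.05 (adjusted p = 0.70). MT-ND6 was at 275, 227, 212 and 173 CPM in DMSO and at 284, 250, 210 and 242 CPM in bortezomib, which overlapped, and its log2 fold change of 0.16 (edgeR adjusted p = 0.44) did not pass the test. As a share of mitochondrial counts, MT-ND6 went from 0.125% on average in DMSO to 0.0628% in bortezomib.

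**Figure D2:**
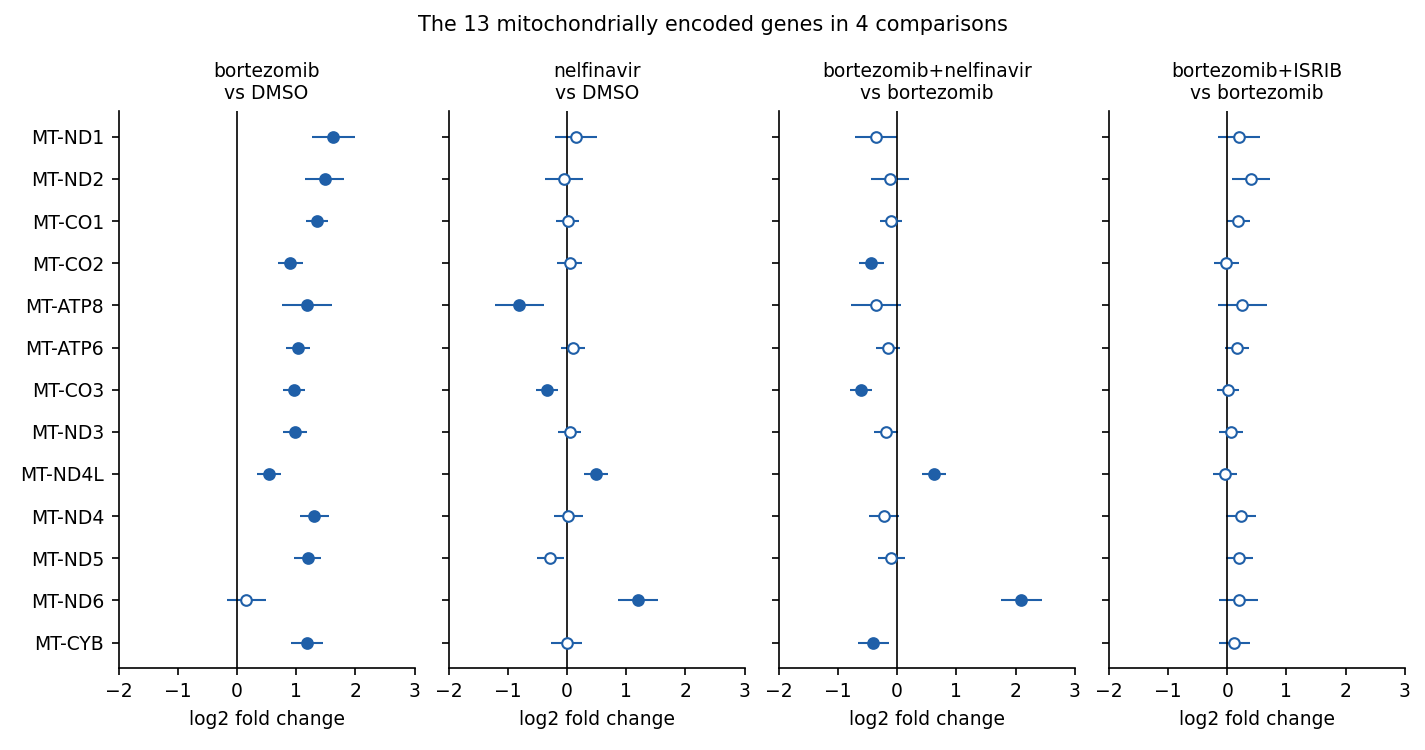
Log2 fold changes (x axis) of the 13 mitochondrially encoded genes (y axis) in 4 comparisons, with 95% intervals from the edgeR fit; filled points have an adjusted p under 0.05. MT-ND6 and MT-ND4L have the smallest changes with bortezomib, 0.16 and 0.54, and the highest with nelfinavir, 1.20 and 0.49.

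The nuclear members went mostly the other way. Of 83 tested, 45 fell and 7 rose with bortezomib, beside 25.8% and 27.6% of all genes, with a median log2 fold change of -0.31, and 8 fell more than 2-fold. The split depended on scaling: by library totals alone, where the median of all genes moved to -0.49, 73 nuclear members fell and none rose while 11 mitochondrial genes rose and none fell, and by totals without the mitochondrial rows 63 fell and 2 rose while 12 mitochondrial genes rose. With library totals alone 1490 genes rose and 6265 fell, against 3500 and 3274 with TMM factors. The median of the mitochondrial genes lay above that of the nuclear members by 1.49 under each of these scalings. A change of scale moves both medians nearly alike, so this sameness is no check on the result. Single genes crossed: in the TMM fit MT-ND6 and MT-ND4L, at 0.16 and 0.54, lay below COX7A2L and COX6A1, at 0.59 and 0.57.

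Lower members were most frequent in complexes V and III. In the ATP synthase, 12 of 15 nuclear subunits fell and none rose, with a median of -0.52. ATP5G1, ENSG00000159199 at chr17:46970127-46973233 of GRCh37, encodes 1 of 3 precursors of the same c-ring protein, and was at 150, 148, 146 and 152 CPM in DMSO and at 47.0, 45.2, 44.3 and 52.3 CPM in bortezomib. It fell by 1.66 on the log2 scale (SE 0.101, edgeR adjusted p = 1.652e-15), with no overlap. ATP5G3, another gene for that protein, was at 715, 706, 786 and 792 CPM in DMSO and at 370, 359, 310 and 396 CPM in bortezomib, and fell by 1.06 (SE 0.0828, edgeR adjusted p = 9.186e-13). ATP5G2, the remaining gene of the 3, was at 176, 170, 193 and 200 CPM in DMSO and at 170, 165, 190 and 216 CPM in bortezomib, with a log2 fold change of 0.00 (edgeR adjusted p = 0.97). Of the 3, ATP5G2 alone overlapped between these groups, and with library totals alone its value was -0.50. In complex III, 7 of 9 nuclear subunits fell and none rose. UQCR10, a small subunit ENSG00000184076 at chr22:30163358-30166402, was at 101, 105, 113 and 112 CPM in DMSO and at 40.6, 33.9, 36.5 and 32.4 CPM in bortezomib, and fell by 1.58 (SE 0.117, edgeR adjusted p = 2.55e-13). CYC1, which carries the haem of cytochrome c1, fell by 0.39, and UQCRFS1, the Rieske iron-sulfur protein, had a log2 fold change of -0.09 that did not pass the test.

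**Figure D3:**
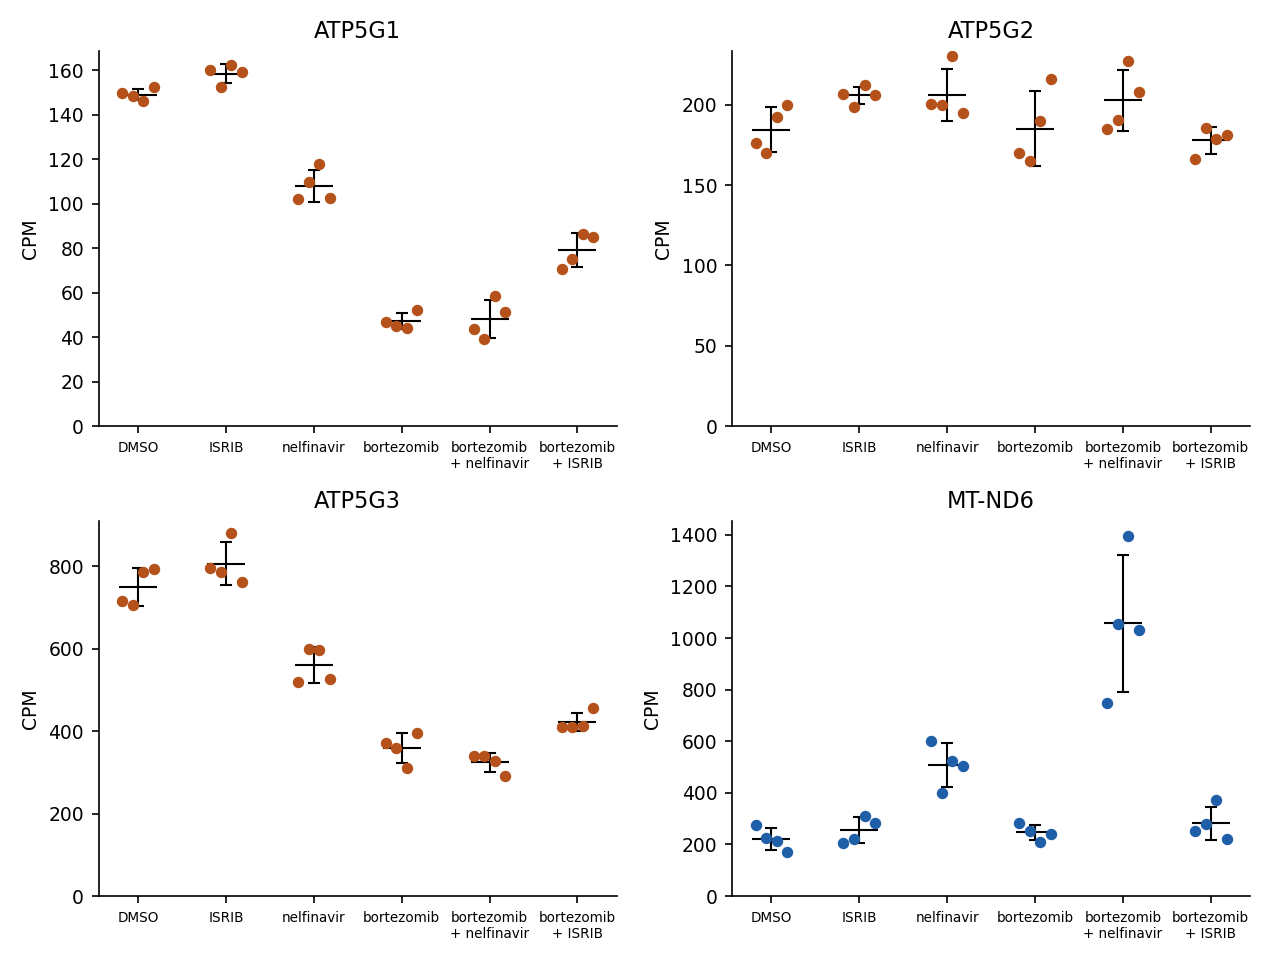
Levels in CPM (y axis) in every library of ATP5G1, ATP5G2, ATP5G3 and MT-ND6, by treatment (x axis); points are libraries, and the dash and bars are the mean and SD of 4. ATP5G1 and ATP5G3 are lower in every library with bortezomib than in any without it, ATP5G2 overlaps, and MT-ND6 is highest with nelfinavir.

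In complex I, 18 of 37 nuclear subunits fell and 4 rose. By position in the complex, of the 30 accessory subunits 16 fell and 4 rose, with a median of -0.47, and of the 7 core subunits 2 fell and none rose, with a median of -0.04; the difference between these classes was not tested. NDUFB3 was at 77.0, 92.2, 98.5 and 102 CPM in DMSO and at 35.5, 26.9, 37.8 and 38.5 CPM in bortezomib, and fell by 1.42 (SE 0.303, edgeR adjusted p = 0.0001884). NDUFA2, an accessory subunit of the matrix arm, was at 99.1, 99.9, 103 and 98.1 CPM in DMSO and at 58.6, 67.8, 52.8 and 61.4 CPM in bortezomib, and fell by 0.73 (edgeR adjusted p = 1.439e-07). The 4 that rose were NDUFB9, NDUFB8, NDUFS4 and NDUFV3, by 0.40, 0.34, 0.34 and 0.24, and the NDUFV3 call was lost without any one of 7 of the 8 libraries (0.07, adjusted p = 0.50 without replicate 4 of bortezomib). In complex II, the succinate dehydrogenase that has no mitochondrially encoded subunit, SDHA fell by 0.27 (lost without replicate 3 or 4 of DMSO or replicate 1 of bortezomib, adjusted p up to 0.13) and SDHC, a membrane anchor, by 0.81, while SDHB and SDHD did not pass the test. Complex IV moved least, with 4 of 11 lower and 1 higher and a median of -0.07. COX7B was at 137, 125, 156 and 142 CPM in DMSO and at 67.3, 63.8, 58.1 and 78.8 CPM in bortezomib, and fell by 1.06 (SE 0.0959, edgeR adjusted p = 3.008e-11). COX6A1, the form of that subunit found outside muscle, was at 102, 95.1, 104 and 98.9 CPM in DMSO and at 140, 146, 161 and 148 CPM in bortezomib, and rose by 0.57 (SE 0.0927, edgeR adjusted p = 3.617e-06) without overlap. By library totals alone its value was 0.07 (adjusted p = 0.54), and COX6A1 shares 307 bases of near-identical sequence with the counted copy COX6A1P2. The 2 other members that rose are not subunits: COX7A2L, a supercomplex factor, by 0.59, and ATP5SL by 0.39.

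**Figure D4:**
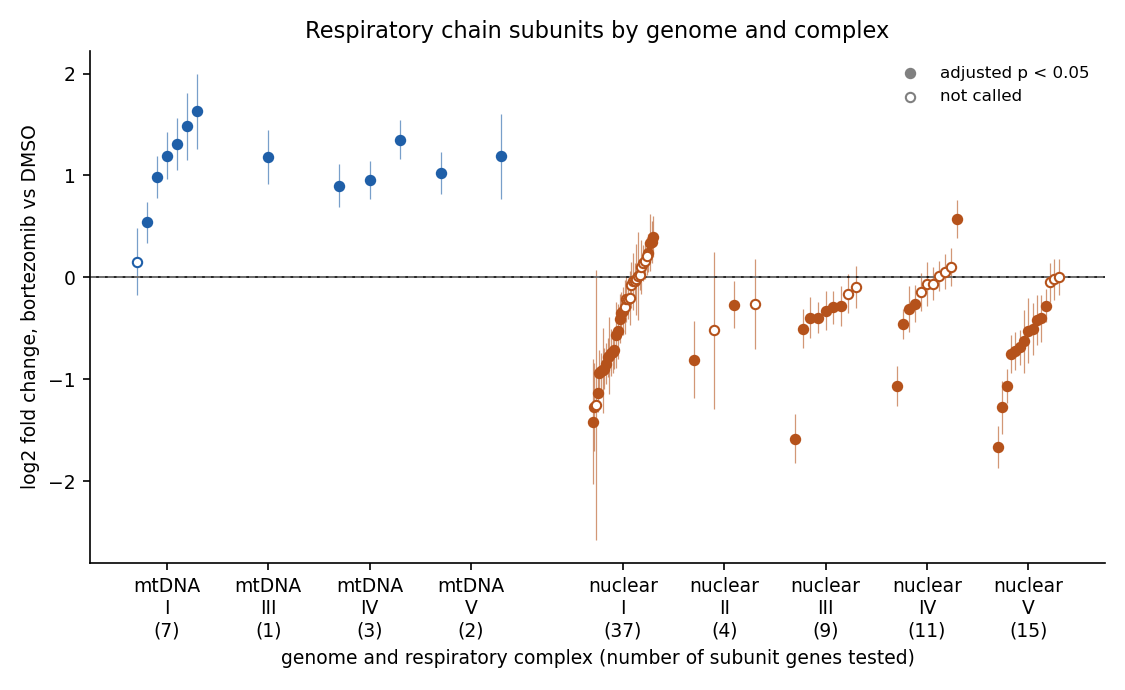
Log2 fold change with bortezomib against DMSO (y axis) of each tested subunit gene, by genome and respiratory complex (x axis), with 95% intervals from the edgeR fit; filled points have an adjusted p under 0.05 and the dashed line is the median of all genes. The mitochondrially encoded genes lie between 0.16 and 1.63, and the nuclear subunits of complexes I, II, III and V have medians of -0.33, -0.39, -0.33 and -0.52.

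Message length went partly with these differences. Over the 75 nuclear subunits with a transcript length, Spearman's rho between length and the log2 fold change with bortezomib was 0.308, beside 0.134 over all genes tested, and for the addition of ISRIB to bortezomib it was -0.509, beside 0.0125. These are correlations across genes of the same libraries, which are not independent replicates, and the part of length in the results was not tested.

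Nelfinavir alone left most members within the spread of the replicates. Of the nuclear members 2 rose and 4 fell, beside 10.4% and 8.84% of all genes, and of the mitochondrial genes 2 rose and 2 fell. MT-ND6 was at 603, 399, 525 and 505 CPM with nelfinavir, above every DMSO library, and rose by 1.20 (SE 0.163, edgeR adjusted p = 9.411e-07). MT-ND4L was at 1867, 1783, 2062 and 1907 CPM, also above every DMSO library, and rose by 0.49 (SE 0.0988, edgeR adjusted p = 0.000402). Both calls held with any single library left out. MT-ATP8, at 6699, 7452, 5453 and 3699 CPM, and MT-CO3 fell by 0.81 (adjusted p = 0.004015) and 0.34 (adjusted p = 0.00551). The 4 nuclear members that fell all belong to the ATP synthase. ATP5G1 was at 102, 110, 118 and 103 CPM and fell by 0.46, ATP5G3 was at 519, 599, 598 and 526 CPM and fell by 0.42 (edgeR adjusted p = 0.0004056 and 0.0002353), and neither overlapped with DMSO. ATP5J and ATP5E fell by 0.24 and 0.22, and the ATP5J call was lost without replicate 1, 3 or 4 of DMSO or replicate 1, 2 or 4 of nelfinavir (adjusted p up to 0.12). The 2 that rose were COX7A2L, by 0.41, and NDUFV1, the flavin-binding core subunit of complex I, by 0.41, the latter call being lost without replicate 1 or 3 of DMSO or replicate 3 or 4 of nelfinavir (adjusted p up to 0.075).

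Over the 13 mitochondrial genes, the log2 fold change with nelfinavir ran opposite to the adenine count of the stretches shown earlier, with Spearman's rho -0.88 and Pearson's r -0.938. For ISRIB alone the values were -0.66 and -0.762, and for bortezomib 0.509 and 0.658. Without MT-ND6 the nelfinavir rho was -0.845, and with windows of 10 and 30 bases it was -0.787 and -0.744. The bortezomib rho was 0.366 without MT-ND6, and 0.732 and 0.359 with those windows. When nelfinavir was added to bortezomib, rho was weaker, at -0.362, and -0.176 without MT-ND6. In the nelfinavir interaction it was 0.0232. It was 0.515 for ISRIB added to bortezomib, 0.784 in the ISRIB interaction and 0.735 between the combinations. The nelfinavir and ISRIB comparisons use the same DMSO libraries, and the genes share libraries and depth, so this is given as a description, and the part of adenine content in the results was not tested. MT-ATP8 and MT-ND5, the 2 genes with the most adenines, also varied together between replicates of 1 treatment. In DMSO replicates 1 to 4, MT-ATP8 took 7.53%, 5.89%, 4.87% and 4.77% of mitochondrial counts and MT-ND5 2.68%, 2.22%, 2.02% and 2.02%. In bortezomib they took 7.23%, 7.68%, 4.79% and 3.95%, and 2.48%, 2.53%, 2.35% and 1.84%. MT-ND6 in DMSO went the same way, from 0.171% to 0.0983%. The part of this spread in the correlations was not tested.

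**Figure D5:**
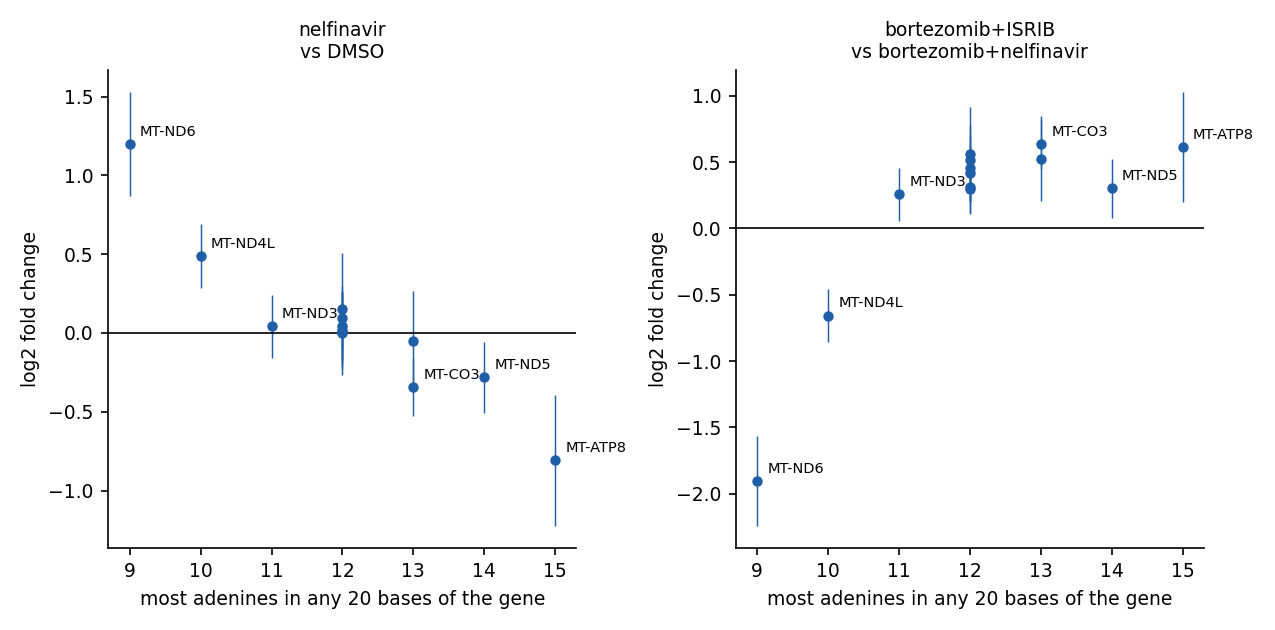
Log2 fold change of the 13 mitochondrially encoded genes (y axis) against the most adenines in any 20 bases of the gene (x axis), for nelfinavir against DMSO and for bortezomib with ISRIB against bortezomib with nelfinavir, with 95% intervals from the edgeR fit. With nelfinavir the gene with 9 adenines, MT-ND6, is highest at 1.20 and the gene with 15, MT-ATP8, is lowest at -0.81.

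With ISRIB alone no member and no other gene passed the test: 0.0% were called higher and 0.0% lower by edgeR, while 702 of all genes had an unadjusted p under 0.05, among them 1 mitochondrial and 6 nuclear members, and DESeq2 called 21 genes. The median log2 fold change was 0.06 for the mitochondrial and 0.07 for the nuclear members.

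MT-ND6 was highest when nelfinavir was added to bortezomib. It was at 748, 1055, 1394 and 1032 CPM with both drugs, above every other library of the study, and the log2 fold change against bortezomib alone was 2.10 (SE 0.167, edgeR adjusted p = 1.767e-11), a 4.29-fold difference. MT-ND6 took 0.330% of mitochondrial counts on average with both drugs, against 0.0628% with bortezomib. MT-ND4L was at 2803, 3275, 3165 and 2938 CPM and rose by 0.62 (SE 0.0989, edgeR adjusted p = 1.192e-05), again with no overlap. MT-CO3, at 33340, 33600, 29640 and 31080 CPM against 46730, 46990, 52600 and 49280 CPM, fell by 0.62 (SE 0.0907, edgeR adjusted p = 3.675e-06), and MT-CO2 fell by 0.44. MT-CYB fell by 0.40 (adjusted p = 0.01856), but was at 28580, 30050, 19320 and 21250 CPM, and without replicates 3 and 4 the value was -0.15 (adjusted p = 0.46); the call was also lost without replicate 3 or 4 of bortezomib (adjusted p = 0.065 and 0.050). Without those libraries 2 mitochondrial genes rose and 2 fell, MT-ND6, MT-ND4L, MT-CO3 and MT-CO2.

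Among the nuclear members, 6 rose and 13 fell when nelfinavir was added, beside 15.6% and 13.4% of all genes, with a median of -0.04. SDHC was at 35.7, 47.3, 36.1 and 50.5 CPM with bortezomib and at 33.8, 32.5, 15.7 and 15.2 CPM with both drugs, a log2 fold change of -0.82 (SE 0.203, edgeR adjusted p = 0.002538). The low libraries were replicates 3 and 4, and without them the value was -0.35 (adjusted p = 0.20). The same held for SDHB, the iron-sulfur subunit, at -0.64 with all libraries and -0.17 (adjusted p = 0.65) without those replicates. Without them 2 nuclear members rose and 9 fell, among 2645 genes called in either direction. Without replicate 4 of bortezomib the split turned, to 13 higher and 7 lower. With all libraries the 13 lower of 83 tested were already near the 13.4% of all genes, so no direction of the members is read from these counts. NDUFA4, a subunit of complex IV, was at 422, 385, 431 and 498 CPM with bortezomib and at 346, 334, 325 and 327 CPM with both drugs, and fell by 0.38 (SE 0.0854, edgeR adjusted p = 0.0009362), with no overlap and evenly over the replicates. NDUFV3 fell by 0.42 (adjusted p = 0.000668), and NDUFS1, the largest core subunit of complex I, by 0.40 (adjusted p = 0.001117; 0.052 without replicates 3 and 4). ATP5G1, at 43.5, 39.0, 58.7 and 51.4 CPM, overlapped with bortezomib alone. Scaled by totals without the mitochondrial rows, 33 nuclear members fell and none rose, and 9 mitochondrial genes fell and 2 rose. That scaling shifts all genes, and the shares of all genes given above are from the TMM fit. These counts therefore show the dependence on scale and are not a result about the members.

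Adding ISRIB to bortezomib changed no mitochondrial gene past the threshold in edgeR (median 0.19; 2 had an unadjusted p under 0.05, and DESeq2 called none), while 12 nuclear members rose and 3 fell, beside 6.89% and 5.34% of all genes. Those that rose spread over the complexes, with 5 in complex I, 2 in complex III, 3 in complex IV and 2 in complex V. NDUFA2 was at 104, 126, 89.4 and 108 CPM with both drugs, above every DMSO library in all but replicate 3, and rose by 0.83 against bortezomib alone (SE 0.1003, edgeR adjusted p = 3.685e-07). COX7B was at 118, 111, 116 and 120 CPM, between the bortezomib and the DMSO libraries, and rose by 0.80 (SE 0.0974, edgeR adjusted p = 4.208e-07). ATP5G1 was at 70.5, 75.1, 86.5 and 85.1 CPM, above every bortezomib library and below every DMSO library, and rose by 0.75 (SE 0.103, edgeR adjusted p = 3.945e-06). COX7A2, the form of that subunit found outside muscle, was at 66.5, 53.9, 67.8 and 62.6 CPM with bortezomib and at 105, 106, 94.1 and 100 CPM with both drugs, above every DMSO library, and rose by 0.69 (edgeR adjusted p = 3.722e-05). COX6B1, an intermembrane-space subunit of complex IV, was at 202, 199, 194 and 188 CPM and rose by 0.60 (edgeR adjusted p = 1.357e-05), and ATP5J2, UQCR10 and NDUFS5 rose by 0.57, 0.51 and 0.63. Most of these had fallen with bortezomib: NDUFA2, COX7B, ATP5G1, UQCR10 and ATP5J2 by 0.73, 1.06, 1.66, 1.58 and 0.75. Since both comparisons use the bortezomib libraries, the opposite signs are not independent. The 3 that fell were UQCRFS1 by 0.40, NDUFS3, a core subunit of complex I, by 0.31 and NDUFV3 by 0.29, the last being lost without replicate 4 of bortezomib (adjusted p = 0.20) or any library of the combination. Leaving out replicate 3 of bortezomib with ISRIB brought 2 mitochondrial genes past the threshold.

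Set directly against each other, the 2 combinations differed in more members. With ISRIB rather than nelfinavir beside bortezomib, 27 nuclear members were higher and 3 lower, and 10 mitochondrial genes were higher and 2 lower, where 11.2% and 13.2% of all genes were called. The 2 that were lower were MT-ND6, at -1.91 (edgeR adjusted p = 1.593e-10), and MT-ND4L, at -0.66 (edgeR adjusted p = 6.112e-06). Without replicates 3 and 4 of bortezomib with nelfinavir, only 2 mitochondrial genes, MT-CO3 and MT-CO2, were called higher and the same 2 lower, and 17 nuclear members were higher and 3 lower. With any single library left out, between 4 and 8 mitochondrial genes were called higher and the same 2 lower. MT-CO3 differed by 0.63 (edgeR adjusted p = 2.806e-06), and ATP5G1, COX6B1 and NDUFA4 by 0.72, 0.63 and 0.63, without overlap. NDUFB3 had the widest nuclear difference, 1.35 (adjusted p = 0.002117), which came to 0.64 (adjusted p = 0.11) without those libraries.

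Whether each drug acted otherwise in the presence of bortezomib was tested by the interaction terms. For nelfinavir, 3 nuclear members were more positive and 9 more negative with bortezomib than without, beside 9.74% and 10.0% of all genes, and 1 mitochondrial gene went each way. MT-ND6 was more positive by 0.90 (SE 0.228, edgeR adjusted p = 0.004554), and MT-CO2 more negative, at -0.48 (adjusted p = 0.01885), though this call was lost without any one of 6 single libraries (adjusted p up to 0.071). For ISRIB, 7 nuclear members were more positive and 2 more negative, beside 2.92% and 1.89% of all genes, with 1 mitochondrial gene more positive. NDUFA2 had the largest of these terms, 0.84 (SE 0.138, edgeR adjusted p = 0.0001502), followed by COX7A2 at 0.68 (adjusted p = 0.00555) and ATP5G1 at 0.66 (adjusted p = 0.002875). The mitochondrial gene was MT-ND5, at 0.52 (adjusted p = 0.04454), a call lost without any one of 9 single libraries (adjusted p up to 0.12) and under 3 other scalings.

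Genes that serve the chain without belonging to it were counted from lists by function. With bortezomib, 20 of 45 tested assembly factors fell (44.4%, beside 25.8% of all genes) and 8 rose (17.8%, beside 27.6%), among them COX18, an insertase for MT-CO2, and COA3, a factor for MT-CO1 synthesis, at -1.72 and -1.45, and COX19 and COX15, at 0.93 and 0.72. With single libraries left out, 19 to 22 fell and 4 to 7 rose, the 4 being without replicate 3 or 4 of bortezomib. Of 27 genes of mitochondrial transcription and RNA processing 7 rose (25.9%, close to the share over all genes) and 2 fell (7.41%), with FASTKD5 and SUPV3L1, both in mitochondrial RNA processing and decay, at 1.07 and 1.05, and TFB1M and SLIRP at -0.51 and -0.50. By library totals alone that split turned, to 3 higher and 16 lower, where 1490 of all 12685 genes rose and 6265 fell. By totals without the mitochondrial rows it was 4 and 11. A change of scale moves all genes, so this turn is not particular to the list. Of 13 genes of mitochondrial DNA maintenance 2 rose (15.4%) and 5 fell (38.5%), and of 13 genes of the citric acid cycle 3 rose (23.1%) and 4 fell (30.8%). Among 12 nuclear regulators of respiratory genes 3 rose and 3 fell, 1 in 4 each way, beside the same 27.6% and 25.8% of all genes. NRF1, the factor whose motif is shown in the promoters, rose by 1.11, from 8.68 ± 1.94 to 18.9 ± 4.10 CPM (SD, n = 4). PPARGC1A, a coactivator of mitochondrial biogenesis, was low throughout, at 7.16 to 9.09 CPM in DMSO and 0 to 1.28 CPM in bortezomib, and the 2 groups did not overlap. Against bortezomib alone it was higher with nelfinavir, at 1.96 to 4.31 CPM (edgeR adjusted p = 0.0001704), and with ISRIB, at 0.837 to 2.95 CPM (edgeR adjusted p = 0.006527). When nelfinavir was added to bortezomib, 16 of the 45 assembly factors fell (35.6%, beside 13.4% of all genes) and 5 rose (11.1%, beside 15.6%). Without replicates 3 and 4 of the combination 10 fell and 2 rose, and with single libraries left out 10 to 14 fell and 4 to 7 rose, the 10 being without replicate 3 of the combination. When ISRIB was added 2 fell and 2 rose (4.44% each, beside 5.34% and 6.89% of all genes).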

How the data were processed

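Polyadenylated RNA of HepG2 cells was measured by 3′ mRNA sequencing in 24 libraries, 4 for each of 6 treatments. The authors prepared libraries with the Lexogen QuantSeq FWD kit, trimmed reads with cutadapt 2.8, aligned them with STAR to hg19 in the nf-core RNA-Seq pipeline and counted them over Ensembl GRCh37 genes of the protein-coding, lincRNA and antisense classes. The deposited values are raw counts per gene, with no normalization; no source read here names the program that counted, whether it used strand or whether molecular identifiers were present. Oligo-dT priming makes counts depend on poly(A) tails and, where it occurs, on internal adenine runs, and reads of overlapping genes can be assigned to either.

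Groups were taken from the sample labels. The members and the gene lists (assembly factors, mitochondrial transcription and RNA processing, mitochondrial DNA maintenance, nuclear regulators, citric acid cycle, cell type markers) were chosen with earlier results of these data known. Counts of all genes were tested with edgeR 4.0.16 in R 4.3.3: filterByExpr (count at least 5, total at least 25), TMM factors, 1 quasi-likelihood model of the 6 groups over all 24 libraries, and Benjamini-Hochberg adjustment over all 12685 genes tested, called at an adjusted p under 0.05. CPM values were scaled by the TMM factors. The comparisons with DMSO share its 4 libraries, and those with bortezomib alone share that group. The labels number the replicates and also carry a sample number, and the authors' methods call them biological without saying how they were separated. In ISRIB the 2 orders differ: replicate 4 is S9 and replicates 1 to 3 are S10 to S12. What the sample numbers stand for is not stated, and all comparisons by replicate here use the replicate numbers. The p-values measure the spread between these samples. Genes named were all mitochondrial members, the extremes of each complex with bortezomib, the 3 nuclear members with the smallest p in each direction of the other comparisons, isoform groups, the SDH genes and CYC1; further names were chosen after their values were seen. Ratios, shares and correlations are descriptions. COX4I2, COX6A2 and COX7A1 had no row in the deposited count table, so they could not be analysed. Near copies were sought with BLAST 2.17.0 for the last 500 bases of each member. Of 99 members with a transcript, 23 shared at least 80 of these bases at 97% identity or more with another transcript, 4 of them with another counted gene. MT-ND1, MT-ND2, MT-CO1, MT-CO2, MT-ATP8, MT-ATP6 and MT-CO3 were among the 23, with pseudogenes that were not counted. The part of such copies in their counts was not tested. Promoters and their letters came from RefSeq, GRCh38.p14, and gene coordinates from GRCh37. The fit was tested on simulated counts. Alternatives were other scalings and filters, DESeq2 1.42.0, fits of only the groups compared, a replicate block and each library left out; leaving out 2 libraries together was added after seeing the data. Totals of 5154533 to 6943164 counts per library limit members under about 10 CPM most.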

Additional observations from a re-analysis of the deposited data

Results flagged for a closer look

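Of 264 groups of 4 libraries looked at, 14 held a library far from the other 3 by Dixon's criterion, which chance alone meets in about 1 of 20 groups. Among the mitochondrial genes, MT-CO1 was at 5514 CPM in replicate 3 of bortezomib with ISRIB (others 7134 to 7358), MT-CO2 at 45860 CPM in replicate 4 of that group (others 36860 to 38250) and MT-ATP6 at 71370 CPM in the same library (others 57120 to 58260). MT-ATP6 was at 31900 CPM in replicate 4 of ISRIB (others 25630 to 26000), and MT-ND4 at 28620 CPM in replicate 2 of ISRIB (others 34800 to 35160). Among the nuclear members of complexes I to III, NDUFV3 was at 154 CPM in replicate 4 of bortezomib (others 115.1 to 119.5) and at 105.1 CPM in replicate 3 of bortezomib with nelfinavir (others 89.29 to 91.69). NDUFS3 was at 90.56 CPM in replicate 1 of bortezomib with ISRIB (others 93.47 to 94.06), SDHB at 31.76 CPM in replicate 3 of ISRIB (others 40.66 to 41.6), SDHD at 3.367 CPM in replicate 3 of bortezomib with ISRIB (others 10.36 to 11.51) and CYC1 at 70.75 CPM in replicate 2 of that group (others 55.74 to 58.07). In the ATP synthase, ATP5G2 was at 230.1 CPM in replicate 3 of nelfinavir (others 194.9 to 200.1), ATP5G3 at 456.3 CPM in replicate 4 of bortezomib with ISRIB (others 410.5 to 411.4) and ATP5J2 at 133.6 CPM in replicate 1 of DMSO (others 103.7 to 106.7).

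Among the members named by rule, the effect of nelfinavir or ISRIB differed between cells with and without bortezomib for 17 member and drug pairs. This is by the interaction term of the edgeR model (log2 scale, with bortezomib minus without). Some of these members were named for a small p in the same terms. The counts over all members tested are larger and are given with the interaction terms earlier. For nelfinavir the terms were 0.90 in MT-ND6, 0.51 in NDUFA2, 0.50 in ATP5G1, 0.46 in ATP5J2, -0.41 in NDUFA4, -0.48 in MT-CO2, -0.53 in NDUFV3 and -0.85 in SDHC, with edgeR adjusted p from 0.002584 to 0.02196. The SDHC term was -0.38 (adjusted p = 0.26) and the ATP5G1 term 0.29 (adjusted p = 0.17) without replicates 3 and 4 of bortezomib with nelfinavir. For ISRIB they were 0.84 in NDUFA2, 0.68 in COX7A2, 0.66 in ATP5G1, 0.59 in COX7B, 0.54 in COX6B1, 0.52 in MT-ND5, 0.50 in ATP5J2, -0.37 in NDUFS3 and -0.56 in UQCRFS1, with edgeR adjusted p from 0.0001502 to 0.04454. With single libraries left out, the ISRIB call of NDUFS3 was lost for 13 of 16 libraries (adjusted p up to 0.087), that of MT-ND5 for 9, that of ATP5J2 for 3 and that of UQCRFS1 for replicate 2 of bortezomib (adjusted p = 0.054), and the nelfinavir calls of SDHC and MT-CO2 for 6 each and that of NDUFA4 for replicate 4 of bortezomib (adjusted p = 0.085).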

How the results depend on the processing

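Of the 279 recomputed counts of calls, ratios and shares under other settings, 246 stayed within 1.5 times the count or 1 SD of the value. Fitting only the groups compared gave 3873 genes and 13 nuclear members for nelfinavir, 81 genes for ISRIB, 2246 genes and 6 nuclear members for nelfinavir added to bortezomib, 866 genes and 1 mitochondrial gene for ISRIB added, 1740 genes and 18 nuclear members between the combinations, and 0 mitochondrial genes for the ISRIB interaction. Without a filter, 39 genes were called for ISRIB, 1 mitochondrial gene for ISRIB added to bortezomib, and 4 and 2 in the nelfinavir and ISRIB interactions; DESeq2 called 21 genes for ISRIB and 923 in its interaction. Totals without mitochondrial rows, which shift all genes, gave 11 mitochondrial and 33 nuclear members for nelfinavir added, 46 nuclear between the combinations, and 5 and 20 in the nelfinavir interaction. RLE factors, library totals and TMM without mitochondrial rows gave 0 mitochondrial genes in the ISRIB interaction. With each gene weighing the same, the ratio changed by 0.039 for nelfinavir added, by -0.029 between the combinations and by -0.0087 in the nelfinavir interaction. Without the 20 most counted nuclear genes in the denominator, the mitochondrial share rose by 13.95 points with bortezomib.

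Without replicates 3 and 4 of bortezomib with nelfinavir, 11 nuclear members were called for nelfinavir added and 4 mitochondrial genes between the combinations, the nelfinavir interaction of the ratio was -0.065, and the mitochondrial share differed by -4.723 points for nelfinavir added and by -3.668 in its interaction. With bortezomib, library totals alone turned NDUFB9 to -0.10, ATP5G2 to -0.50, NDUFV3 to -0.26, NDUFA4 to -0.44, NDUFS1 to -0.33, NDUFS3 to -0.47 and COX4I1 to -0.40, and totals without mitochondrial rows turned ATP5G2 to -0.25, NDUFV3 to -0.016, NDUFA4 to -0.20 and NDUFS3 to -0.23, by the shift in scale. The share of higher calls among all genes with ISRIB added fell from 56.3% to 40.5% with library totals, and in its interaction from 60.7% to 49.4%. The causes of the other changes were not tested.

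With each library left out in turn, calls ranged from 3 to 6 for nuclear members with nelfinavir, from 0 to 2 for mitochondrial genes with ISRIB added, from 6 to 10 for mitochondrial genes between the combinations, from 1 to 3 and 6 to 12 for mitochondrial and nuclear members in the nelfinavir interaction and from 0 to 1 for mitochondrial genes in the ISRIB interaction. Nothing in the labels ties same-numbered libraries together, and not every same-numbered pair deviated together: a correlation above 0.1 was found in 10 of 60 such pairs and in 7 of 180 pairs whose numbers differed. Still, 14 of 24 libraries correlated best with their own number, a hint from the data that some share more than a number; with the replicate block, 12 mitochondrial genes rose and 46 nuclear members fell with bortezomib among 6835 genes called.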
